A study of Mus musculus with 15 samples.

Results

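Ears of mice given phorbol 12-myristate 13-acetate (PMA) together with an innate defense regulator peptide were compared with control ears across the whole transcriptome, to describe what differed from control and what sat at control level when the peptide was given. The libraries were chosen by their titles: PMA_1002 (n = 6) and control (n = 5), 11 of the 15 libraries in the series. The other 4 libraries, labelled PMA_ethanol, are given beside them, and they entered the fit. All ears came from female mice aged 5 weeks, and polyA RNA was sequenced from whole ear tissue. The label of the PMA_1002 group names PMA and the peptide, that of the PMA_ethanol group names PMA and ethanol, and that of the control group names no agent. No source used here gives the strain, the doses, the route and times of treatment or the vehicle of the control ears. A difference from control therefore covers PMA, the peptide and any difference in vehicle, which cannot be told apart. Whether each library is a separate animal is not stated, so each p-value measures how these samples vary, and that variation may be technical.

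PMA is a plant-derived irritant that stands in for diacylglycerol and activates protein kinase C. Downstream, the transcription factors NF-kB and AP-1 switch on cytokine and chemokine genes in keratinocytes and resident immune cells, neutrophils leave the blood, and the epidermis thickens. Innate defense regulator peptides are synthetic relatives of natural host defense peptides, made to modulate such responses. Ear skin is a sandwich of epidermis, dermis with hair follicles and sebaceous glands, cartilage and a little muscle, and all of these were in the libraries.

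The keratinocyte markers Krt5, Krt14 and Krt10 lay between 3212 and 15689 CPM (reads scaled to a common library size) in the control libraries. Reads in genes numbered 5371961 to 11501228 in control, 4958387 to 28585995 in PMA_1002 and 2656680 to 23999666 in PMA_ethanol libraries. Along the first principal component of the libraries' log2 CPM (60.3% of the variance), control libraries scored -79.3 to -69.5 and PMA_1002 libraries 2 to 25.1. The mean log2 CPM of 18 hair follicle markers varied within every group, from 1.68 to 7.06 in control and from -0.32 to 5.33 in PMA_1002. The 6 libraries of highest hair follicle level (2 in each group) are called the high-follicle libraries, and they were left out in an alternative chosen after seeing the data.

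The promoters of 3 genes are shown first as examples: Cxcl1, a neutrophil-attracting chemokine, Il6, the interleukin-6 gene, and Krt10, a keratin of differentiating epidermis. Cxcl1 and Il6 lay far above control and Krt10 at control level. Each sequence is the 250 bases upstream of the RefSeq start on GRCm38.p6. Capitals mark letters that match AP-1 (TGANTCA, the phorbol ester response element), NF-kB (GGG and TTTCC with NN, any pair of bases, between them) or the cAMP response element (TGACGTCA) on either strand.
Cxcl1 (chr5:90890995-90891244, plus strand): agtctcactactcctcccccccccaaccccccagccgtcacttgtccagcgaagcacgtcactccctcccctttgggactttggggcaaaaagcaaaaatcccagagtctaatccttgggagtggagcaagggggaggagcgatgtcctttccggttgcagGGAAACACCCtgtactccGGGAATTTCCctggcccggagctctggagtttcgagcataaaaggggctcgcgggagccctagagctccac
Il6 (chr5:30012864-30013113, plus strand): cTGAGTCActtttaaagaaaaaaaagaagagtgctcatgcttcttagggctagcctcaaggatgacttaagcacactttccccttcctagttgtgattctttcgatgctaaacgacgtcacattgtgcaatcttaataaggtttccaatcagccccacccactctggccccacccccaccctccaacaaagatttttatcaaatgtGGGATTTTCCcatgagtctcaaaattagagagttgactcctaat
Krt10 (chr11:99389365-99389614, minus strand): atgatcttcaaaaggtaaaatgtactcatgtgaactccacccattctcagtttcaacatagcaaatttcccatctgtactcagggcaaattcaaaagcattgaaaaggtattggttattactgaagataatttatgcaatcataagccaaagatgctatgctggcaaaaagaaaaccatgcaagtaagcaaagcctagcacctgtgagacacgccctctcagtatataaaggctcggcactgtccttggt
The Cxcl1 promoter held 2 matches to the NF-kB letters, starting 89 and 71 bases upstream of the start. The Il6 promoter held 1 match to the AP-1 letters, 249 bases upstream, and 1 to the NF-kB letters, 44 bases upstream. The Krt10 promoter held none of the 3 motifs, which says only that these letters are not in this window. These promoters do not stand for their classes. Of genes higher by a fold of at least 2 with a promoter sequence, 14% held the AP-1 letters and 4.74% the NF-kB letters.

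Of 14991 genes tested, 8250 (55.0%) differed between PMA_1002 and control in edgeR's quasi-likelihood test at a Benjamini-Hochberg adjusted p under 0.05. Of these, 4252 were higher (28.4%) and 3998 were lower (26.7%). Most of the differences were small: 6388 of the called genes differed by a fold under 2. A fold of at least 2 was reached by 1137 genes that rose (7.58%) and 725 that fell (4.84%), a fold of at least 4 by 371 and 52, and a fold of at least 8 by 181 and 3. Every PMA_1002 library lay above every control library for 3032 genes (20.2%) and below every control for 2475 (16.5%). PMA_ethanol versus control, which shares the control libraries, gave 4876 higher (32.5%) and 5382 lower (35.9%), with 855 and 329 at a fold of at least 4. The 99th percentile of the log2 fold change was 3.23 in PMA_1002 and 4.91 in PMA_ethanol, and the 1st percentile -1.71 and -2.51.

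A gene was read as being at control level where the 95% interval of its log2 fold change lay wholly within a fold of 1.5 of control, since a p that misses the threshold does not show equality. By this rule 6146 genes (41.0%) were at control level in PMA_1002. Of these, 1906 were also called, with a difference that was small and measured precisely, and 4240 were not called. Another 2501 genes (16.7%) were neither called nor at control level and are called unplaced. These intervals are per gene and not adjusted. How often a gene could be placed depended on its abundance: among 3852 genes with a mean of 1 to 10 CPM, 11.6% were at control level and 45.8% were neither, against 49.6% and 7.1% of 8444 genes with 10 to 100 CPM. With upper-quartile scaling, which moved the median log2 fold change of all genes by -0.16, the called genes split into 3079 higher and 5811 lower, 34.6% higher against 51.5% with TMM scaling.

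**Figure D1:**
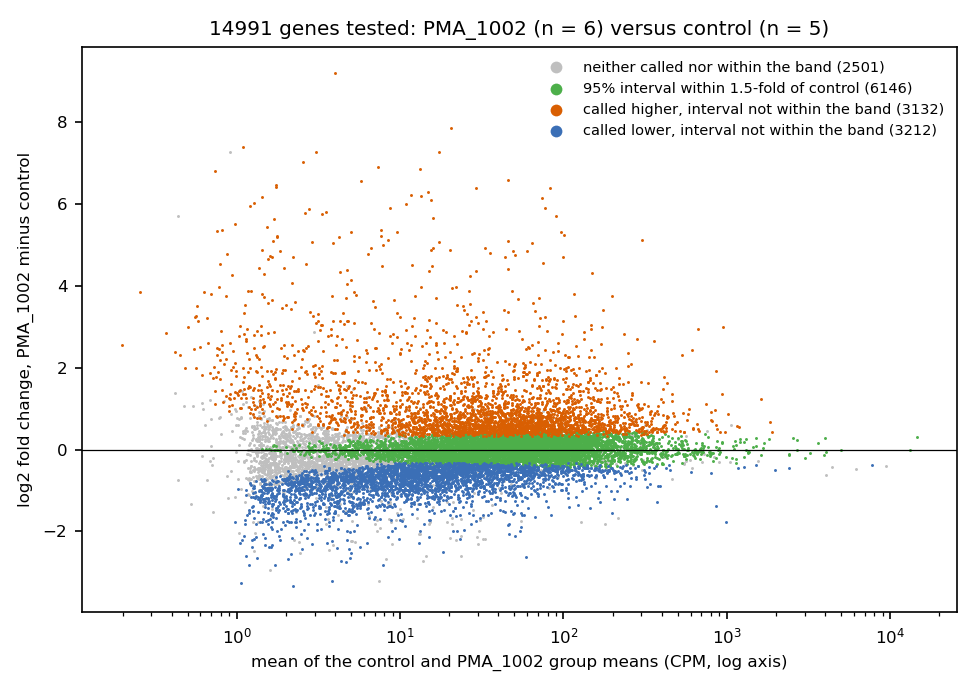
Each point is 1 of 14991 genes: the mean of the 2 group means in CPM (log axis) against the log2 fold change of PMA_1002 (n = 6) minus control (n = 5), coloured by class. The rises reach further from 0 than the falls, and the 6146 genes at control level thin out below 10 CPM.

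Rises and falls of single genes are given as log2 fold changes from control with their standard errors (SE). Inflammatory ligands were among the largest rises. Of 25 chemokine genes tested (28 listed), 23 were higher than control, against 28.4% of all genes tested, and 2, Cxcl12 and Cx3cl1, were at control level. None of the 25 was lower (1 with upper-quartile scaling). In 21 of the 25, every PMA_1002 library lay above every control, against 20.2% of all genes tested. The median log2 fold change was 3.13, against -0.03 over all genes tested and 4.19 for the same list in PMA_ethanol. Control means reached 1 CPM in only 15 of the 25. At least the others met the minimum count through PMA-treated libraries, so they had to be higher there.

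Cxcl1 (ENSMUSG00000029380, chromosome 5, 90891241 to 90893115 on GRCm38) stood at 0.867, 1.72, 0.642, 0.925 and 0.82 CPM in controls 1 to 5. In PMA_1002 it ranged from 67.8 to 125 CPM with a median of 90.6. The groups did not overlap, and the PMA_ethanol libraries, at 155 to 324 CPM, lay above both. The log2 fold change from control was 6.58 in PMA_1002 (SE 0.403, edgeR adjusted p = 2.03e-10) and 8.01 in PMA_ethanol. Ccl2 and Ccl7 both attract monocytes. Ccl7 stood at 3.47, 5, 6.26, 7.09 and 3.77 CPM in controls and at 144 to 254 CPM (median 200) in PMA_1002. Again no PMA_1002 library came near a control, and the log2 fold change was 5.23 (SE 0.196, edgeR adjusted p = 1.71e-11) for Ccl7 and 5.32 (SE 0.255, edgeR adjusted p = 5.26e-10) for Ccl2. Cxcl2, another neutrophil attractant, and Ccl4, a monocyte attractant, had only 8 and 4 control reads in all, so their log2 fold changes of 6.85 and 6.56 are imprecise. Cxcl12, which marks stromal cells and retains leukocytes, had 132, 141, 131, 132 and 142 CPM in controls and 127 to 186 CPM (median 151) in PMA_1002. These groups overlapped, and the 95% interval of the log2 fold change ran from -0.03 to 0.37.

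Of 25 cytokine and growth factor genes tested (28 listed), 21 were higher than control, none was lower, Il33 and Il18 were at control level, and Il20 and Il11 were unplaced. Control means reached 1 CPM in 18 of the 25. At least the others met the minimum count through PMA-treated libraries, so they had to be higher in some of those. Il1b, the gene of the inflammasome product interleukin-1 beta, stood at 1.04, 1.55, 2.65, 1.7 and 2.3 CPM in controls and at 119 to 208 CPM (median 167) in PMA_1002. The groups were far apart, and the log2 fold change was 6.39 (SE 0.293, edgeR adjusted p = 5.23e-11) and 8.66 in PMA_ethanol. Il6 had 0, 0, 0.241, 0.154 and 0.328 CPM in controls, only 6 reads in all, and 27.8 to 56.4 CPM (median 40.6) in PMA_1002. Its log2 fold change was 7.85 (SE 0.875, edgeR adjusted p = 2.03e-09). Tnf, the classic early cytokine, rose less, by 2.13 (SE 0.268, edgeR adjusted p = 5.15e-06), from 1.54 to 3.69 CPM in controls to 8.38 to 17.4 CPM. Hbegf, a ligand of the epidermal growth factor receptor released by stressed keratinocytes, stood at 9.71, 9.65, 10.7, 10.5 and 9.67 CPM in controls and 94.4 to 144 CPM (median 122) in PMA_1002. The groups did not overlap, and the log2 fold change was 3.57 (SE 0.135, edgeR adjusted p = 8.88e-12), beside 5.54 in PMA_ethanol. Il18, a cytokine that keratinocytes store, was at control level, with a log2 fold change of 0.12 and an interval from -0.30 to 0.53, and so it was in 15 of 23 alternatives (Il33 in 16).

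Among the largest rises of all, Fgf23, the gene of a phosphate-regulating hormone, had no reads in any control and 2.15 to 13 CPM in PMA_1002, at least 98.2-fold higher against a floor of 3 reads over the control group. Mmp1b, a collagenase family gene, had 1 control read, and its CPM ratio was 254 (95% interval 45.3 to 10045, counting error only). Acod1, the itaconate-producing enzyme of activated macrophages, rose by 7.26 (SE 1.43, edgeR adjusted p = 3.25e-06) from 8 control reads.

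A gene was counted as holding a motif where any of its promoters held the letters. Of genes called higher by a fold of at least 2 with a promoter sequence, 14% (112 of 801) held the AP-1 letters. The share was 7.1% of all genes tested, 6.49% of genes lower by a fold of at least 2 and 6.38% of uncalled genes at control level. The NF-kB letters were in 4.74%, 2.15%, 1.53% and 1.86% of the same classes. Of 17 chemokine genes, 5 (29.4%) held the NF-kB and 3 the AP-1 letters. Of 19 ribosome biogenesis genes, 1 held the NF-kB and 0 the AP-1 letters, and of 21 feedback inhibitors 3 and 2. The cAMP response element letters were in 3.75%, 3.35%, 2.29% and 3.69%. Over all 32851 RefSeq windows of the same 300 bases (250 before and 50 after the start), the shares were 7.81%, 1.63% and 1.79%. These were counted per window and not per gene, so they are not directly comparable. These are descriptions of letters and not of binding.

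Signalling genes were raised, and the genes that restrain the signal were raised with those that carry it. Of 24 feedback inhibitors, 23 were higher and 1, Tsc22d3, the glucocorticoid-induced leucine zipper gene, was lower (-1.54). The list's median log2 fold change was 1.81, against 2.86 in PMA_ethanol. Bcl3, an NF-kB regulator, stood at 7.63, 7.58, 8.74, 5.7 and 6.89 CPM in controls, at 167 to 240 CPM (median 187) in PMA_1002 and at 282 to 324 CPM in PMA_ethanol. The 3 groups did not overlap, and the log2 fold change of 4.69 in PMA_1002 (SE 0.117, edgeR adjusted p = 1.03e-13) stood beside 5.32 in PMA_ethanol. Socs3, an inhibitor of cytokine receptor signalling, rose by 3.75 (SE 0.109, edgeR adjusted p = 7.42e-13), from 25.2 to 33.1 CPM in controls to 290 to 453 CPM. Dusp1, a phosphatase of MAP kinases, rose by 1.18 (SE 0.225, edgeR adjusted p = 0.000565). Spry2, an inhibitor of growth factor signalling, met both rules at once, called at 0.36 with an interval from 0.20 to 0.51, whereas PMA_ethanol gave 1.24.

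Of 22 AP-1 and immediate-early factors, 19 were higher and none was lower, with a median of 1.69. Junb, a subunit of AP-1, stood at 92.6, 87.8, 97.2, 106 and 108 CPM in controls and at 377 to 443 CPM (median 397) in PMA_1002. The PMA_1002 libraries were tightly grouped and clear of both other groups, and the log2 fold change was 2.03 (SE 0.0774, edgeR adjusted p = 9.58e-12) against 2.93 in PMA_ethanol. Ier2, induced within minutes of stimulation, was higher by 1.61 (SE 0.0712, edgeR adjusted p = 3.53e-11). Fos, another subunit, had 16.1, 6.37, 10.4, 54.6 and 26.6 CPM in controls and 53.2 to 103 CPM in PMA_1002. Its groups overlapped, and its rise of 1.77 (SE 0.449, edgeR adjusted p = 0.00572) was lost without the 6 high-follicle libraries (edgeR adjusted p = 0.0821). Klf4, a factor of epidermal barrier formation, was at control level (0.16, interval -0.06 to 0.38).

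Eicosanoid genes were split. Of 25, 12 were higher, 6 were lower, near the 26.7% of all genes, and 7 were at control level (4 without the 6 high-follicle libraries). Ptgs2, the inducible cyclooxygenase, had 1.73, 0.861, 1.52, 2.31 and 2.13 CPM in controls, 14.1 to 28.8 CPM (median 24) in PMA_1002 and 95.2 to 246 CPM in PMA_ethanol. No group overlapped another, and the log2 fold changes were 3.75 (SE 0.374, edgeR adjusted p = 3.85e-07) and 6.75. Ptges, the prostaglandin E synthase downstream of it, rose by 2.83 (SE 0.104, edgeR adjusted p = 8.88e-12), and Ltb4r1, a leukotriene B4 receptor, by 1.76 (SE 0.11, edgeR adjusted p = 1.76e-09). Lta4h, which makes leukotriene B4, was called lower but within the band, at -0.35 (interval -0.50 to -0.19).

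Interferon-stimulated genes were mixed. Of 27 tested (29 listed), 11 were higher, against 28.4% of all genes tested, and 10 were unplaced. At control level were 4, against 41.0% of all genes. Control means reached 1 CPM in 25 of the 27, and at least the others met the minimum count through PMA-treated libraries. Only 2 were at control level without any 1 of control 3, 4 or 5 or PMA_1002 3, 4 or 6 or with a replicate block, and 1 without the 6 high-follicle libraries. Ifit2, Ifit3 and Cmpk2 were lower, at -0.53, -1.37 and -1.27, a share of the list under the 26.7% of all genes tested. The Ifit2 call was lost without the 6 high-follicle libraries (edgeR adjusted p = 0.117), and without any 1 of control 1, 4 or 5 or PMA_1002 1, 4 or 5. Gbp5, an inflammasome-linked GTPase, rose by 2.53 (SE 0.266, edgeR adjusted p = 1.24e-06), and Irf7, a master factor of interferon genes, by 1.49 (SE 0.271, edgeR adjusted p = 0.000283). Irf9, a partner of STAT proteins, rose by 0.88 (SE 0.0754, edgeR adjusted p = 7.29e-08).

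Neutrophil markers were high in PMA_1002 ears. Of 16 tested (22 listed), 14 were higher than control, and Padi4 and Mpo were unplaced. None was at control level, and none was lower (1 with upper-quartile scaling or without the 6 high-follicle libraries). In each of the 14, every PMA_1002 library exceeded every control, against 20.2% of all genes tested. Control means reached 1 CPM in only 9 of the 16. At least the others met the minimum count through PMA-treated libraries, so they had to be higher in some of those. The list's level ran from 0.58 to 1.13 mean log2 CPM in control, 4.28 to 4.73 in PMA_1002 and 5.99 to 6.47 in PMA_ethanol. S100a8, an alarmin abundant in neutrophils and made by stressed keratinocytes too, had 3.12, 3.96, 2.01, 1.7 and 1.8 CPM in controls and 30 to 85.9 CPM (median 73.3) in PMA_1002, which is 4.80 on the log2 scale (SE 0.459, edgeR adjusted p = 6.15e-07). Clec4e, a pattern-recognition receptor, rose by 6.39 (SE 0.469, edgeR adjusted p = 8.58e-10), and Lcn2, an iron-binding protein of neutrophils and epithelium, by 3.55 (SE 0.154, edgeR adjusted p = 1.71e-11). The surface marker gene Ly6g and the granule genes Ltf, Camp and Ngp did not pass the filter and stayed at or below 1.43 CPM in every library of all groups. In bulk tissue, more cells of a type and more RNA per cell cannot be told apart.

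Monocyte and macrophage markers did not move as a block. Of 25, 13 were higher, 5 were lower, under the 26.7% of all genes, and 6 were at control level (3 with upper-quartile scaling). Control means reached 1 CPM in 23 of the 25. At least the others met the minimum count through PMA-treated libraries, so they had to be higher in some of those. Cd14, the lipopolysaccharide co-receptor, rose by 3.37 (SE 0.181, edgeR adjusted p = 9.69e-10), from 8.67 to 14.1 CPM in controls to 96 to 160 CPM. Chil3, a lectin of activated myeloid cells, rose by 6.22 (SE 0.732, edgeR adjusted p = 8.65e-08) from 11 control reads. Mrc1, the mannose receptor gene of macrophages, rose by 1.16 (SE 0.101, edgeR adjusted p = 9.06e-08), from 105 to 125 CPM in controls to 204 to 315 CPM in PMA_1002, with no overlap. Other macrophage genes, Csf1r, Cd163, C1qa, C1qb and C1qc, were at control level. Of these, C1qa (-0.28) and C1qc (-0.26) were called lower in 7 and 6 of 23 alternatives. They were within the band in 21 and 22. Cd68 was at control level too, although it was called at 0.28, a call lost with upper-quartile scaling (edgeR adjusted p = 0.259). The 5 lower genes were Adgre1, Mertk, Aif1, Ms4a7 and Folr2, between -0.38 and -0.75. The lower count was 2 or 3 without any 1 of control 2, 3 or 4 or PMA_1002 4 or 5. The Adgre1, Folr2 and Aif1 calls were lost without the 6 high-follicle libraries (edgeR adjusted p = 0.365, 0.195 and 0.159), and that of Aif1 in 15 of 23 alternatives, DESeq2 and the replicate block among them. Those of Adgre1, Folr2 and Aif1 were also lost without single libraries, namely control 2, 3, 4 or 5, any of PMA_1002 1 to 6 or any of PMA_ethanol 1 to 3 for 1 or more of them (edgeR adjusted p up to 0.179 among these).

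T cell, dendritic and Langerhans cell markers gave 6 higher, near the share of all genes, 2 lower and 3 at control level of 18. Epcam, which Langerhans cells and hair follicle epithelium share, rose by 1.31 (SE 0.0898, edgeR adjusted p = 5.38e-09), and Itgax, the CD11c gene, by 1.06 (SE 0.15, edgeR adjusted p = 1.91e-05). H2-Ab1, an antigen-presentation gene, was at control level (-0.01, interval -0.24 to 0.21).

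Of 14 mast cell markers, 6 were lower, against 26.7% of all genes tested, 2 were higher and Cma1, Mcpt4 and Gata2 were at control level. Only 3 were lower without PMA_1002 4, without PMA_1002 5 or without the 6 high-follicle libraries. Ms4a2, a chain of the high-affinity IgE receptor, stood at 23.1, 20.5, 14.3, 27.4 and 22.1 CPM in controls and at 10.1 to 15.4 CPM (median 11.6) in PMA_1002. The ranges overlapped at their edge, and the log2 fold change was -0.80 (SE 0.207, edgeR adjusted p = 0.00344), whereas PMA_ethanol libraries held 0.83 to 3.58 CPM (-3.45). Hdc, the histamine-forming enzyme, which neutrophils make too, rose by 2.90 (SE 0.152, edgeR adjusted p = 4.22e-10). The other rise was Tph1.

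Of 17 endothelial genes, 8 were higher, 4 were lower, near the 26.7% of all genes, and 5 were at control level. Icam1, the integrin ligand that arrests leukocytes, stood at 31, 33.4, 31.4, 27.7 and 27.4 CPM in controls and at 237 to 427 CPM (median 317) in PMA_1002. The groups were far apart, and the PMA_ethanol libraries, at 393 to 572 CPM, overlapped with PMA_1002. The log2 fold change was 3.40 (SE 0.144, edgeR adjusted p = 6.04e-11) against 3.97 in PMA_ethanol. Selp, the P-selectin gene, rose by 3.36 (SE 0.278, edgeR adjusted p = 1.98e-07). Pecam1, a general endothelial marker, was at control level (0.07, interval -0.05 to 0.20). The lower genes were Kdr, Tek, Vwf and Cldn5, from -0.26 to -1.08. The Kdr call, within the band, was lost without any 1 of control 2, 3 or 5, PMA_ethanol 3 or 4 or PMA_1002 1, 2, 4 or 5, and without the 6 high-follicle libraries (edgeR adjusted p = 0.186).

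Proteases and matrix remodelling genes were higher than control in 21 of 26, against 28.4% of all genes tested, with 4 at control level. None was lower, but 3 were with upper-quartile scaling. The median log2 fold change was 1.60 against 3.47 in PMA_ethanol. Control means reached 1 CPM in 23 of the 26. At least the others met the minimum count through PMA-treated libraries, so they had to be higher in some of those. Adamts4, which cleaves proteoglycans, had 1.04, 3.1, 3.93, 1.39 and 2.3 CPM in controls and 127 to 187 CPM (median 151) in PMA_1002, a rise of 5.90 (SE 0.256, edgeR adjusted p = 3.53e-11). Timp1, an inhibitor of metalloproteinases, stood at 7.11, 8.27, 10.5, 6.01 and 8.03 CPM in controls and at 59.6 to 102 CPM (median 84.6) in PMA_1002. It lay clear of controls and clear of the 465 to 592 CPM of PMA_ethanol, with log2 fold changes of 3.35 (SE 0.149, edgeR adjusted p = 3.58e-11) and 6.04. The gelatinase gene Mmp9 rose by 1.48 (SE 0.179, edgeR adjusted p = 4.79e-06), from 6.78 to 12.6 CPM in controls to 20.8 to 37.8 CPM, beside 134 to 180 CPM in PMA_ethanol. Mmp2, the constitutive gelatinase of fibroblasts, was at control level (-0.08, interval -0.25 to 0.09).

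Of 20 fibroblast and matrix genes, 11 were at control level, against 41.0% of all genes tested. That share was near the 56.8% of genes with a mean of 100 to 1000 CPM. In the same list 2 were higher, and Col14a1, Lum, Eln and Pdgfrb were lower, by at most 0.67 on the log2 scale. The lower count was 11 with upper-quartile scaling and 8 without PMA_ethanol 3. All 4 of these calls were lost with no filter on low counts, and those of Col14a1, Lum and Pdgfrb without single libraries (any of control 3, 4 or 5 or PMA_1002 1 to 6 for 1 or more of them) and without the 6 high-follicle libraries, where the edgeR adjusted p-values were 0.196, 0.256 and 0.151. Dpt, which encodes dermatopontin, was at control level (0.02, interval -0.15 to 0.19). The most abundant collagens, Col1a1, Col1a2 and Col3a1, varied widely within groups and were unplaced. Col3a1 ranged from 9004 to 13404 CPM in controls and from 5244 to 10877 CPM in PMA_1002.

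In the epidermis, wound genes were high while the main keratins were at control level. Among these keratins, Krt14 was within the band but called higher at 0.27, a call lost in 4 of 23 alternatives. It ranged from 3212 to 4146 CPM in controls and from 4006 to 4672 CPM in PMA_1002. Of 26 wound and alarmin genes, 22 were higher, all by a fold of at least 2, and none was lower. S100a7a, Serpinb3a, Stfa1 and Arg1 were unplaced, and none was at control level. Krt16, a keratin of wounded and thickened epidermis, had 9.54, 38.4, 8.66, 20.8 and 8.36 CPM in controls and 270 to 732 CPM (median 629) in PMA_1002, with no overlap. Its log2 fold change was 5.12 (SE 0.402, edgeR adjusted p = 1.05e-06), against 6.88 in PMA_ethanol, where it reached 1301 to 2438 CPM. Krt6a, its partner keratin, rose by 2.36 (SE 0.253, edgeR adjusted p = 5.4e-06), Slpi, an inhibitor of neutrophil elastase, by 4.85 (SE 0.282, edgeR adjusted p = 3.26e-09), and Plaur, the urokinase receptor, by 3.13 (SE 0.198, edgeR adjusted p = 4.23e-09). The list's level ran from 2.63 to 2.86 mean log2 CPM over the controls and from 4.21 to 6.04 over the PMA_1002 libraries. Control means reached 1 CPM in 21 of the 26. At least the others met the minimum count through PMA-treated libraries, so they had to be higher in some of those. Members of the Sprr, Lce, Stfa, Serpinb3 and Defb families are near-identical copies, and their single values are uncertain.

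Of 31 differentiation and barrier genes, 14 were higher, against 28.4% of all genes tested, and none was lower. In the same list 10 were at control level, against 41.0% of all genes, and 8 were unplaced. With upper-quartile scaling 10 were higher and 2 lower. Krt10 had 15689, 12538, 10800, 14640 and 12930 CPM in controls and 12398 to 14120 CPM (median 12931) in PMA_1002, so the PMA_1002 libraries lay inside the control range. The log2 fold change was -0.02, with an interval from -0.23 to 0.19, whereas the PMA_ethanol libraries held 5383 to 6961 CPM (-1.10, edgeR adjusted p = 1.72e-07). Krt2, a keratin of the upper epidermis and the most abundant gene in PMA_1002, ranged from 13878 to 17460 CPM against 10831 to 15411 CPM in controls. It was called at 0.30 (edgeR adjusted p = 0.017) while within the band, and the call was lost in 4 of 23 alternatives, among them those without control 2 or control 3 (edgeR adjusted p up to 0.218, with upper-quartile scaling). Alox12b, a lipoxygenase of the lipid barrier, rose by 1.29 (SE 0.172, edgeR adjusted p = 1.9e-05) and Hopx by 0.66 (SE 0.0901, edgeR adjusted p = 1.34e-05). Flg, the filaggrin gene, was unplaced (-0.23, interval -0.65 to 0.19).

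Of 15 basal epidermis genes, 7 were higher, 5 were at control level and 4, the same 26.7% as over all genes, were lower (Krt15, Lama3, Dst and Sox6). The Lama3 call (-0.41) was lost without the 6 high-follicle libraries (edgeR adjusted p = 0.131). Itga3, a laminin-binding integrin chain, rose by 1.5 (SE 0.091, edgeR adjusted p = 1.46e-09) and Cdh3, the P-cadherin gene, by 1.70 (SE 0.119, edgeR adjusted p = 7.17e-09). Krt5, the main basal keratin, stood at 4292, 4543, 3772, 4230 and 3857 CPM in controls and at 3559 to 4452 CPM (median 3839) in PMA_1002. The groups overlapped, with a log2 fold change of -0.07 (interval -0.26 to 0.11), beside -0.72 in PMA_ethanol.

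Of the 33 lists, ribosome biogenesis was the one with every member called higher, while the ribosome's own proteins sat at control level. All 24 biogenesis genes listed were higher, 18 by a fold of at least 2. In all 24 every PMA_1002 library lay above every control, against 20.2% of all genes tested. The median log2 fold change was 1.37, against 1.54 in PMA_ethanol, and control means reached 1 CPM in all 24. Rrp12, a ribosome export factor, stood at 21.2, 27, 32.1, 22.7 and 25.4 CPM in controls and at 82.2 to 107 CPM (median 96.4) in PMA_1002. With no overlap, its log2 fold change was 1.90 (SE 0.0951, edgeR adjusted p = 1.33e-10). Nop2, a nucleolar RNA methyltransferase, rose by 1.70 (SE 0.0946, edgeR adjusted p = 5.15e-10). Of 30 cytosolic ribosomal protein genes, 29 were at control level, among them Rps6 (0.04, interval -0.07 to 0.15). With upper-quartile scaling 21 of the 30 were called lower, while 29 were within the band. The 1 gene outside the band was Rpl24, at 1.08, a call lost without any 1 of control 1, 4 or 5 or PMA_1002 2 or 3 (edgeR adjusted p up to 0.0931). Rpl27 and Rps14 were called at 0.22 and -0.15 but within the band, and both calls were lost without the 6 high-follicle libraries. The Rps14 call was also lost without control 5, PMA_1002 1 or PMA_1002 5 (edgeR adjusted p up to 0.327 over the alternatives).

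Respiratory chain genes were mostly at control level, while most glycolysis and hypoxia-responsive genes were higher. Of 30 respiratory chain subunits, 29 were at control level. With upper-quartile scaling 18 of the 30 were called lower, while 29 were within the band. All 7 mitochondrially encoded mRNAs tested (13 listed) were at control level, but only 4 were with a replicate block or without the 6 high-follicle libraries. Ndufs3, a complex I subunit, had 52, 54.6, 55.2, 53.2 and 50 CPM in controls and 51.7 to 54.4 CPM (median 53.1) in PMA_1002. The groups coincided, and the log2 fold change was 0.00 with an interval from -0.12 to 0.12. Glycolysis and hypoxia-responsive genes were higher in 14 of 21, against 28.4% of all genes tested, and lower in 2. In this list 7 were at control level, against 41.0% of all genes. Ldha, lactate dehydrogenase A, rose by 0.68 (SE 0.0604, edgeR adjusted p = 1.07e-07) and Adm, the adrenomedullin gene, by 2.33 (SE 0.169, edgeR adjusted p = 8.77e-09), while Hk1, a housekeeping hexokinase, was at control level (0.09, interval -0.04 to 0.22).

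Cholesterol synthesis genes were at control level in 18 of 23, against 41.0% of all genes tested. In this list 7 were called higher, a share near the 28.4% of all genes, and none was lower. With upper-quartile scaling 5 were higher and 2 lower, and the list's median log2 fold change went from 0.12 to -0.04. Srebf2, the factor that drives the pathway, rose by 0.53 (SE 0.0784, edgeR adjusted p = 3.01e-05). Adipocyte, sebaceous and fatty acid genes were at control level in 12 of 22 and lower in 8. That lower share was not far above the 26.7% of all genes tested. The lower count was 4 without PMA_1002 1 or PMA_1002 5, 5 without any 1 of control 1, 2 or 4 or PMA_1002 4 or with a replicate block, and 3 with no filter on low counts. Srebf1, a lipogenic factor, fell by 0.52 on the log2 scale (SE 0.134, edgeR adjusted p = 0.00362), and Acly was at control level (-0.04, interval -0.19 to 0.11).

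Of 19 stress and unfolded protein response genes, 11 were at control level (7 without the 6 high-follicle libraries), against 41.0% of all genes tested. In this list 8 were higher (5 with upper-quartile scaling), against 28.4%, and 2 were lower, against 26.7%. Atf4, the central factor of the integrated stress response, rose by 1.06 (SE 0.0717, edgeR adjusted p = 3.86e-09), and its target Asns, an asparagine synthetase gene, by 0.90 (SE 0.097, edgeR adjusted p = 9.29e-07). Of 20 antioxidant and metallothionein genes, 9 were higher, 4 lower and 8 at control level. The share at control level was near the 41.0% of all genes tested, and the lower share was under the 26.7%. Mt2, a metal-binding protein gene, stood at 132 to 176 CPM in controls and 825 to 1707 CPM in PMA_1002, a rise of 2.94 (SE 0.152, edgeR adjusted p = 6.71e-10). Txnrd1, thioredoxin reductase, rose by 1.45 (SE 0.117, edgeR adjusted p = 4.26e-08).

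**Figure D2:**
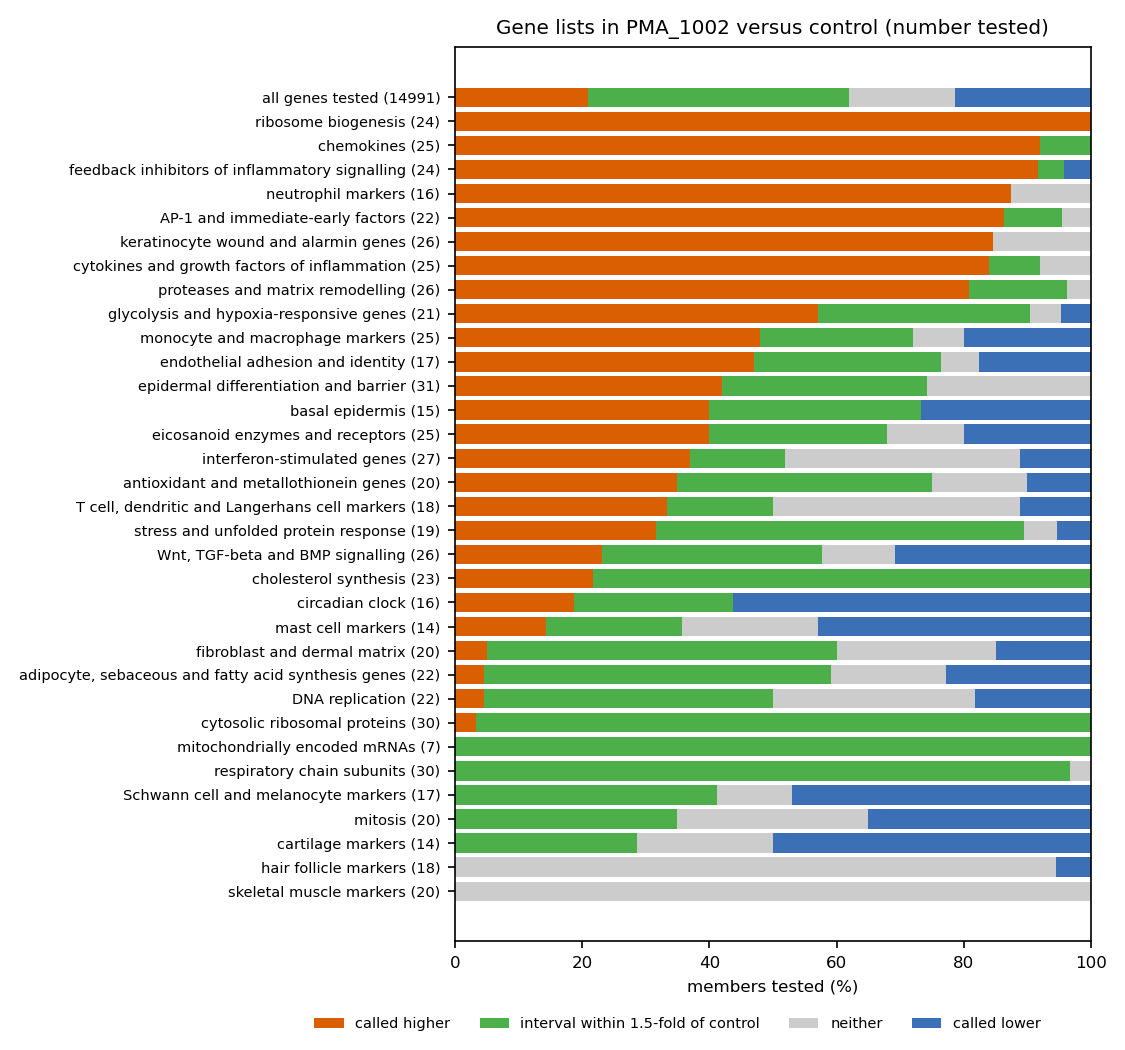
Share of the tested members of each gene list (number in brackets) that were called higher, had an interval within a fold of 1.5 of control, were neither, or were called lower in PMA_1002 versus control. Members that were both called and within the band are drawn as within the band. Ribosome biogenesis is called higher throughout, while ribosomal proteins, respiratory chain subunits and mitochondrial mRNAs lie almost wholly within the band.

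Falls were smaller than rises, and several lists of resident cells and programmes held members called lower. Of 16 clock genes, 9 were lower, against 26.7% of all genes tested, 4 were higher and 4 were at control level (2 with upper-quartile scaling or without the 6 high-follicle libraries). Dbp, a clock output factor, stood at 92.6, 73, 71.4, 80.3 and 117 CPM in controls and at 17 to 31.2 CPM (median 20.4) in PMA_1002. The groups did not overlap, and the log2 fold change was -2 (SE 0.159, edgeR adjusted p = 3.88e-08) beside -3.50 in PMA_ethanol. Bhlhe40, a repressor within the clock, rose by 1.92 (SE 0.0928, edgeR adjusted p = 1.16e-10). The hour of sampling is not given in the sources used here, and its part in these values was not tested.

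Schwann cell and melanocyte markers were lower in 9 of 17, against 26.7% of all genes tested, and higher in none. At control level were 7, a share near the 41.0% of all genes. With upper-quartile scaling 14 were lower and 2 at control level, and 4 were at control level without control 3, without control 5 or without the 6 high-follicle libraries. Mitf, the melanocyte master factor, had 36.4, 33.8, 32.3, 35.4 and 33.9 CPM in controls and 21 to 23.3 CPM (median 21.9) in PMA_1002. This fall of 0.64 on the log2 scale (SE 0.0833, edgeR adjusted p = 7.2e-06) was small and without overlap, and PMA_ethanol gave -0.57. S100b, a glial calcium-binding protein, fell by 0.55 on the log2 scale (SE 0.118, edgeR adjusted p = 0.000912). Cartilage markers were lower in 7 of 14 (11 without PMA_1002 1 or without the 6 high-follicle libraries), against the same 26.7%, and higher in none. Of the 14, 4 were at control level (1 with upper-quartile scaling or without those 6 libraries). Col9a2, a cartilage collagen, fell by 0.75 on the log2 scale (SE 0.0961, edgeR adjusted p = 5.37e-06), whereas Acan, the main cartilage proteoglycan, was at control level (-0.22, interval -0.47 to 0.04).

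Of 20 mitosis genes, 7 were lower, a share not far above the 26.7% of all genes tested. Of the rest, 7 were at control level, 6 were unplaced and none was higher. The lower count was 14 with upper-quartile scaling, 13 with only control and PMA_1002 libraries in the fit, and 4 without control 3. Nusap1, a spindle protein, fell by 0.75 on the log2 scale (SE 0.172, edgeR adjusted p = 0.00142) and Ccnb2, a mitotic cyclin, by 0.64 (SE 0.158, edgeR adjusted p = 0.00256). Of 22 replication genes, 6 were lower, a share near that of all genes, 4 higher, 10 at control level and 7 unplaced. With upper-quartile scaling 11 were lower and 2 higher, and without control 4 the number at control level was 6. Pcna, the polymerase clamp, rose by 0.42 (SE 0.0731, edgeR adjusted p = 0.000153), while Pola1, a polymerase alpha subunit, fell by 0.40 on the log2 scale (SE 0.0838, edgeR adjusted p = 0.000708). Both differences were within the band, in 14 and 13 of 23 alternatives.

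Wnt, TGF-beta and BMP genes went both ways, with 7 higher, 9 lower and 9 at control level of 26, shares near those of all genes. Fst, an activin inhibitor, rose by 1.94 (SE 0.136, edgeR adjusted p = 1.11e-08) and Tgfb1 by 1.21 (SE 0.0814, edgeR adjusted p = 3.5e-09).

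The largest single falls among genes whose groups did not overlap were in genes of low to moderate level. P2rx2, an ATP-gated channel gene, stood at 12.8, 13.8, 14.1, 13.1 and 14.8 CPM in controls and at 0.798 to 3.56 CPM (median 1.64) in PMA_1002. That is -2.83 on the log2 scale (SE 0.229, edgeR adjusted p = 3.33e-08), beside -4.42 in PMA_ethanol. Mycl, a MYC family gene, had 97.5, 100, 99.6, 96.6 and 109 CPM in controls and 10.3 to 30 CPM (median 13.9) in PMA_1002, a fall of 2.62 on the log2 scale (SE 0.333, edgeR adjusted p = 2.36e-05). Trp73, a p53 family gene, fell by 2.49 (SE 0.31, edgeR adjusted p = 9.1e-06), from 28.6 to 35.4 CPM in controls to 3.21 to 10 CPM. Cyp2w1 fell by 3.21 on the log2 scale (SE 0.387, edgeR adjusted p = 2.07e-06), Pls1 by 2.65, Gpr34 by 2.53, Fggy by 2.72 and Dlx2 by 2.40. In Fggy and Dlx2 the PMA_ethanol falls were the smaller ones, at -1.64 and -1.74.

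Hair follicle markers moved with some of these libraries. Of 18, 1 was lower and 17 were unplaced, with a median log2 fold change of -1.82 and levels that overlapped between groups. The median was -0.85 without control 3 and -3.3 without PMA_1002 1, where 4 were lower, and 5 were lower without the 6 high-follicle libraries. The called member was Msx2, a homeobox gene, at -1.71 (edgeR adjusted p = 0.00689), and that call was lost with a replicate block (edgeR adjusted p = 0.0653). Without the 6 high-follicle libraries, 3999 genes were higher, 3178 lower and 5053 at control level. All 8 largest falls named above were still called there. Skeletal muscle markers, 20 in all, were unplaced, since their levels ran from 6.02 to 7.64 mean log2 CPM in control and from 6.05 to 7.36 in PMA_1002. Without the 6 high-follicle libraries, 7 of the 20 were at control level, 4 were lower and 1 was higher.

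**Figure D3:**
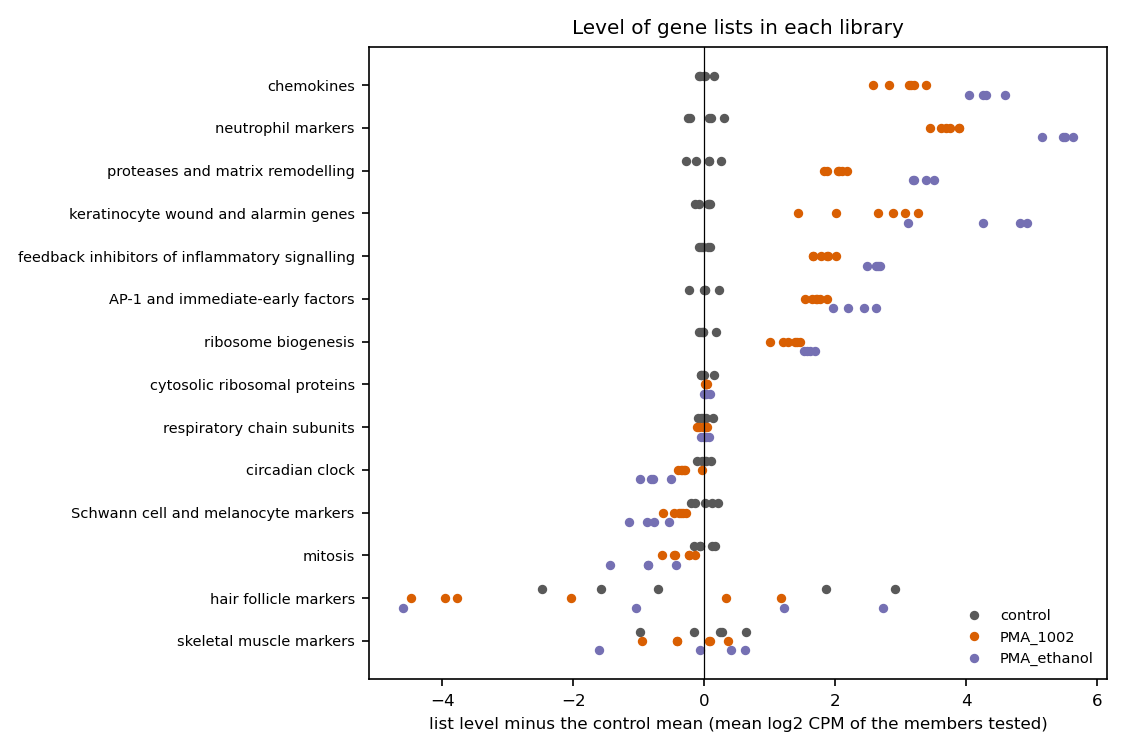
Level of 14 gene lists in each library (mean log2 CPM of the members tested, minus the mean of the controls) in the 3 groups. The chemokine, neutrophil, protease, wound, feedback, AP-1 and ribosome biogenesis lists separate PMA_1002 from control, the ribosomal protein and respiratory chain lists lie on top of control, and the hair follicle list is scattered in all groups.

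Some genes sat at control level in PMA_1002 while PMA_ethanol libraries differed from the same controls. These were chosen for that pattern, so their values are a description. Tnfrsf26, a TNF receptor family gene, had 4.16, 2.58, 5.7, 3.7 and 5.58 CPM in controls and 3.5 to 5.75 CPM (median 4.17) in PMA_1002, but 23.3 to 36.5 CPM in PMA_ethanol. The log2 fold change from control was 0.01 (interval -0.42 to 0.44) in PMA_1002 and 2.79 in PMA_ethanol. In the same class, Slco4a1, Sh2d3c, Dennd1c, Spred3 and Cnr2, the cannabinoid receptor of immune cells, lay between -0.05 and 0.21 in PMA_1002 and between 1.58 and 1.92 in PMA_ethanol. The placement at control level held in 9 of 23 alternatives for Slco4a1, in 10 for Dennd1c and in 16 for Spred3.

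In the other direction, Tnfrsf19, another gene of that family, had 96.3, 97.5, 122, 89.4 and 98.6 CPM in controls and 84.5 to 103 CPM (median 92.7) in PMA_1002. The PMA_ethanol libraries held 19.9 to 34.8 CPM. Its log2 fold changes were -0.12 (interval -0.34 to 0.10) and -1.80. Wnt4, a Wnt ligand, had 92.1, 88.4, 84.5, 79.8 and 78.1 CPM in controls and 69.9 to 120 CPM (median 76) in PMA_1002, and Cgn, the tight junction protein cingulin, 57.2 to 79.9 and 41.4 to 73.3 CPM. Their log2 fold changes were -0.03 and -0.15 in PMA_1002, against -1.62 and -1.76 in PMA_ethanol. Pou3f1, a keratinocyte POU factor, and Trerf1 were called in PMA_1002 as well, at -0.40 and -0.32, but within the band, beside -2.41 and -1.81. The Trerf1 call was lost with no filter on low counts (edgeR adjusted p = 0.0744). Sh3gl2 had -0.27 and -1.83. Control level held in 11 of 23 alternatives for Sh3gl2 and in 14 for Pou3f1.

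The reverse pattern, a fold of at least 2 in PMA_1002 with PMA_ethanol within a fold of 1.5 of control, was met by 2 of all genes tested, both higher. Ngfr, the p75 neurotrophin receptor gene, stood at 12.8, 16, 16.5, 17.3 and 16.9 CPM in controls, at 30.8 to 44.6 CPM (median 36.1) in PMA_1002 and at 15.6 to 19.5 CPM in PMA_ethanol. Every PMA_1002 library lay above every library of the other groups, with a log2 fold change from control of 1.22 (SE 0.109), beside 0.15 in PMA_ethanol. Tph1, which makes serotonin in mast cells, stood at 5.9, 12.7, 17.9, 12.3 and 14.4 CPM in controls and at 31.4 to 39.5 CPM (median 33.8) in PMA_1002. The PMA_ethanol libraries, at 9.87 to 17 CPM, lay among the controls. The log2 fold change was 1.43 (SE 0.196) in PMA_1002 and 0.01 in PMA_ethanol. Both genes were chosen for this pattern, which is given without a test.

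**Figure D4:**
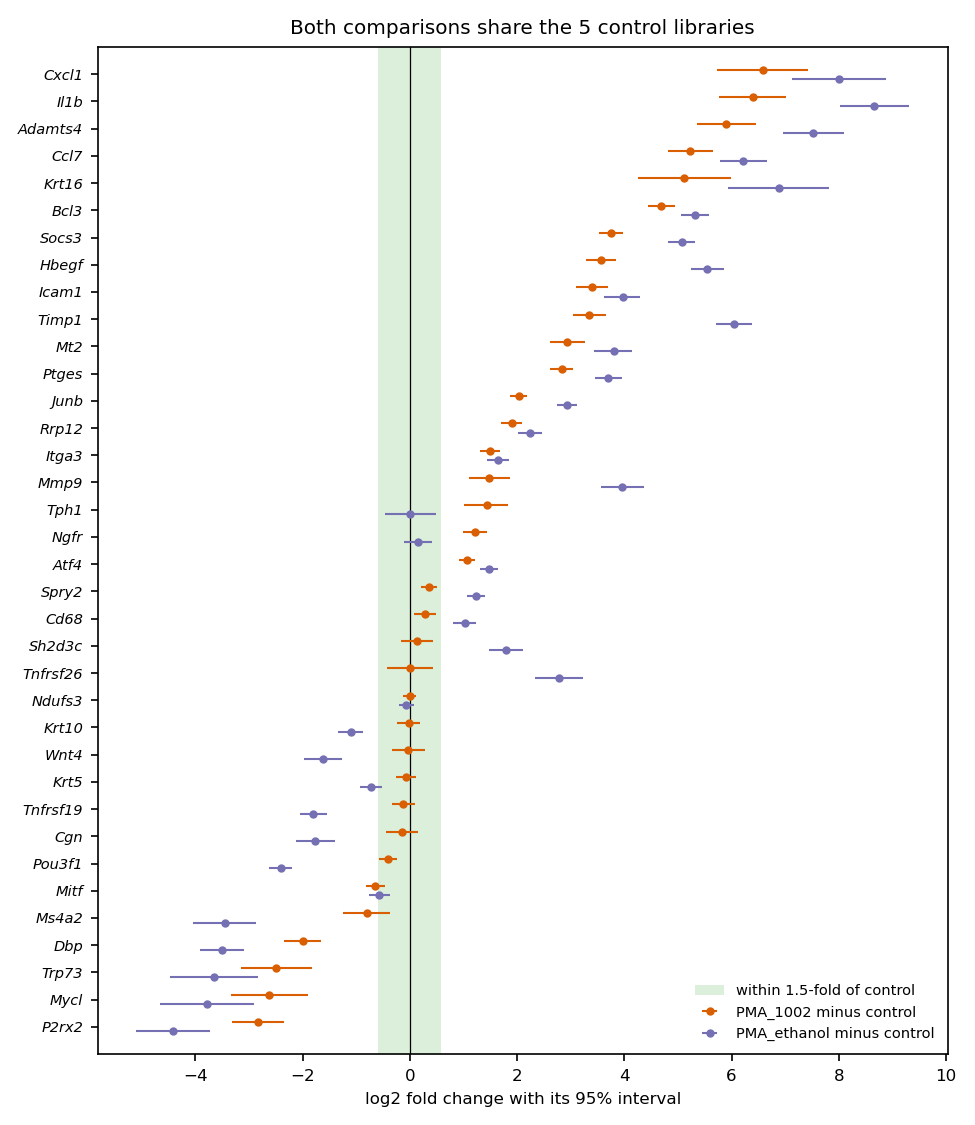
Log2 fold changes with 95% intervals of named genes in PMA_1002 minus control and PMA_ethanol minus control, which share the 5 control libraries, with the band of a fold of 1.5 shaded. Cxcl1, Il1b and Bcl3 lie far to the right in both, Krt10, Tnfrsf19 and Wnt4 lie in the band in PMA_1002 alone, and Ngfr and Tph1 lie in the band in PMA_ethanol alone.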

How the data were processed

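Libraries were prepared from purified polyA RNA by a kit that keeps strand, per the labels' protocols. The submitters' processing notes list STAR 2.5, HTSeq, FastQC 0.11.5 and MultiQC 0.8, and the build GRCm38. How HTSeq treated strand is not given in the sources used here, nor is the annotation release, and values of overlapping or antisense genes are uncertain. The authors deposited raw read counts per gene (48795 genes), with 28.5% to 32.85% of reads given to no gene, which stayed out of library sizes. Symbols came from GENCODE M21 (48349 genes matched) and promoters from RefSeq. All 15 libraries, in 3 groups taken from the titles, were fitted in R 4.3.3 with edgeR 4.0.16 (TMM scaling, filterByExpr, robust quasi-likelihood test, Benjamini-Hochberg adjustment), and DESeq2 1.42.0 was an alternative. The filter asks for reads in single libraries and not for a mean of 1 CPM. Genes with control means not far above 1 CPM may therefore also have passed it through PMA-treated libraries. Intervals used standard errors from the same fit. CPM are relative to TMM-scaled library sizes, and log2 CPM used a prior count of 2. No pair of libraries of a group agreed within sampling noise (chi-square per degree of freedom at least 2.927). Floors and ratio intervals cover counting error only.

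The comparison, the 33 gene lists and the rule for naming genes were chosen with earlier results of these data known. Named were a panel of 20 genes, the 8 largest rises and falls without overlap and with at least 5 CPM, up to 2 called members and 1 member at control level per list, up to 6 genes per direction at control level that PMA_ethanol moved, up to 4 per direction of the reverse pattern, and the 6 most abundant genes. Not every gene named by the rule is printed. Members named to account for a count of 5 or fewer, those listed as at control level or lower, and Mrc1 were chosen after their values were seen.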

Additional observations from a re-analysis of the deposited data

Results flagged for a closer look

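Among the genes named, 1 library stood far from the others of its group in the cases that follow, where its gap to the nearest library exceeded Dixon's limit for the group size. This held in 19 of 322 groups tested (5.9%), and chance alone gives about 1 in 20, so the number is near what chance gives. Library 1 of PMA_1002 was low for S100a8, with 30 CPM against 70 to 85.9 in the others, and high for Padi4, with 32.1 CPM against 5.4 to 14.8. It was also high for Il20 (3.36 CPM against 1.6 to 1.98) and Trerf1 (26.9 against 21.3 to 22.9). Library 3 of PMA_1002 was high for Wnt4, with 120 CPM against 69.9 to 84.4, and low for Dennd1c (7.78 against 10.9 to 12.4). Library 6 of PMA_1002 was high for Folr2 (11 CPM against 5.56 to 7.2) and Pls1 (2.88 against 0.713 to 1.4), and library 5 low for S100b (56.2 against 68 to 74.8).

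Control library 2 held the most Cxcl1 of the controls, 1.72 CPM against 0.642 to 0.925, and the most Mmp2 (772 against 640 to 676), but the least Flg (42.2 against 63.5 to 70.8). Control library 3 was high for Cd68 (40.3 CPM against 28.8 to 31.6) and Tnfrsf19 (122 against 89.4 to 98.6), and held the 1 control read of Mmp1b (0.0802 CPM). Control library 1 was high for Klf4 (728 CPM against 573 to 610) and low for Ngfr (12.8 against 16 to 17.3). Control library 4 was high for Socs3 (33.1 CPM against 25.2 to 26.7) and control library 5 for Mycl (109 against 96.6 to 100).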

How the results depend on the processing

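The counts of genes were recomputed under 23 alternatives of scaling, tool, filter, samples and block, and also with other thresholds. Most stayed within 1.5 times of the values reported. With upper-quartile scaling, 1153 genes were lower by a fold of at least 2, against 725. With no filter on low counts, 15944 genes were unplaced, against 2501, since 28737 genes were then tested. With a band of 0.32 on the log2 scale either side, in place of 0.58, 2147 genes were at control level and 4716 unplaced. With a band of a fold of 2 they numbered 10528 and 992. Leaving out any single library left 3943 to 4501 genes higher and 3532 to 4169 lower. With a replicate block, 4108 genes were higher, 3699 lower and 5527 at control level. Same-numbered control and PMA_1002 libraries deviated from their group means with correlations of -0.497 to 0.068. Same-numbered PMA_ethanol and PMA_1002 libraries gave -0.471 to 0.579. Hair follicle level also varied within every group, so these values cannot show whether the numbers pair the libraries. The block is therefore given only as an alternative. Over the 161 genes followed through the alternatives, 93 of 112 called genes kept the call in all 23, and no direction of a called gene reversed. Of the 49 uncalled genes, 30 stayed uncalled in all 23, and the rest were called in 1 or more. The medians of the T cell and of the mitochondrial mRNA list, both near 0, changed sign in several alternatives. Those of the ribosomal protein and respiratory chain lists (both -0.03) went to 0.01 and 0.02 with no filter on low counts, that of cholesterol synthesis (0.12) to -0.04 with upper-quartile scaling, and that of the stress list (0.14) went to -0.02 with upper-quartile scaling. Depth limits the low genes: the median interval reached 0.53 on the log2 scale either side at 1 to 10 CPM and 0.18 at 100 to 1000 CPM.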

Other observations

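Genes of the lists that were named by rule and not described so far added to both sides. Elovl4, an elongase of epidermal lipids, and Col17a1, a hemidesmosome collagen, were at control level, at 0.09 (95% interval -0.11 to 0.29) and 0.15 (-0.02 to 0.32). Hspa1b, an inducible heat shock gene, was there as well at 0.12 (-0.02 to 0.27), beside -0.50 in PMA_ethanol. Dgat1, which makes triglycerides, rose by 0.53 (SE 0.113, edgeR adjusted p = 0.000813) and was at 105 to 125 CPM in PMA_1002 against 71.6 to 90.5 in control. Pdgfra, a fibroblast receptor, rose by 0.49 (SE 0.0657, edgeR adjusted p = 1.14e-05), with 178 to 200 CPM in PMA_1002 against 128 to 143 in control, and 1.26 in PMA_ethanol.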
